A study of Homo sapiens with 120 samples.

Results

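RNA from untreated Parental U2OS wells labelled 24 h was compared with RNA from untreated Parental U2OS wells labelled 0 h. The 6 libraries, 3 in each group, were taken by their labels (Parental, UT, with the time) from 120 libraries in the series, and no measured value was used to choose them. Of 57665 genes in the deposited count table, 26998 passed a filter on low counts and were tested.

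The study asked how the integrated stress response (ISR), switched on alone by a chemically dimerized PERK kinase, compares with the responses to thapsigargin and to sodium arsenite. U2OS is a human osteosarcoma cell line. The Parental cells carry no construct, and the Dmr-PERK line, from U2OS, stably expresses the kinase domain of mouse PERK joined to a DmrB domain that a ligand brings together. Untreated wells of both lines were collected at 0, 4, 8, 16 and 24 h.

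In the comparison described here, the 24 h wells and the 0 h wells shared their genotype (labelled WT), their medium (DMEM with 10% fetal bovine serum and an antibiotic and antimycotic mix) and their format (24-well plates seeded a day before treatments began), and neither group was given a compound. The sources used here do not say what was done to an untreated well at 0 h, or how much longer a 24 h well than a 0 h well had been in culture. The labels number 3 wells per group but do not say that they came from separate cultures, so p-values measure the spread between wells, which may be technical.

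A culture dish is not a constant environment. Cells attach, spread, use up medium and divide, and a set of transcription systems reports each of these. Immediate early genes such as FOS, EGR1 and the NR4A nuclear receptors are transcribed within minutes of growth factors, stress or mechanical change and their messenger RNAs are short-lived. SRF and the YAP/TEAD pair respond to actin and adhesion, NF-kB drives cytokines and its own inhibitors, SREBP2 follows sterol supply, ATF4 follows amino acid supply and eIF2alpha phosphorylation, and the circadian clock runs on its own loop of about a day.

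The 24 h libraries held 21518743 to 39845738 estimated counts and the 0 h libraries 16792574 to 27706720, within a range of 12869311 to 56504690 over all 120 libraries. Mitochondrial transcripts took 5.71 to 5.79% of counts at 24 h and 5.65 to 5.88% at 0 h. Levels are given as CPM, each count as a share of the library size scaled by TMM. Wells of a group differed by more than counting noise, with a chi-square of 1.53 to 2.41 per degree of freedom for each pair, so none was a repeat deposit, and no library stood apart on the first 2 principal components. The mesenchymal transcripts VIM (2494 to 2585 CPM at 24 h, 2311 to 2369 CPM at 0 h) and COL1A1 (3840 to 3977 CPM at 24 h, 3822 to 3941 CPM at 0 h) were abundant, while the osteoblast genes SP7 and IBSP and the mesenchymal factor TWIST1 did not pass the count filter. Of 12 blood cell markers, the 8 tested came to a sum of 8.79 to 9.56 CPM at 24 h and 6.86 to 7.74 CPM at 0 h. CD3E, LYZ and HBB were among those under the count filter. The sum of 8 endothelial markers was 32.55 to 34.9 CPM at 24 h and 37.0 to 38.6 CPM at 0 h. Of 12 epithelial markers, the 11 tested came to a sum of 528.5 to 566 CPM at 24 h and 618 to 665 CPM at 0 h. KRT18 made up 240.4 to 272 CPM of this sum at 24 h and 314 to 340.4 CPM at 0 h.

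Over a day without treatment the transcriptome of the Parental cells moved widely. At an adjusted p under 0.05 (edgeR quasi-likelihood test, Benjamini-Hochberg over all 26998 genes), 8966 genes differed between 24 h and 0 h, which is 33.2% of those tested. Of these 4431 were higher at 24 h (16.4% of the genes tested) and 4535 were lower (16.8%). With library totals alone in place of TMM scaling the split was 5809 higher and 3720 lower. Most changes were small: 1471 genes (5.45%) differed at least 2-fold, 560 higher (2.07%) and 911 lower (3.37%). Among the more abundant genes large falls outnumbered large rises. Of 12447 genes whose mean reached 5 CPM at 24 h or at 0 h, 325 were lower by at least 2-fold and 113 were higher by at least 2-fold. At any fold, 6869 of these 12447 genes were called, 3374 higher and 3495 lower. Counts in the gene lists below stand beside this share too, since the 26998 genes tested include many of low level. In these bulk libraries, fewer cells in a state and less RNA of a gene per cell cannot be told apart.

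**Figure D1:**
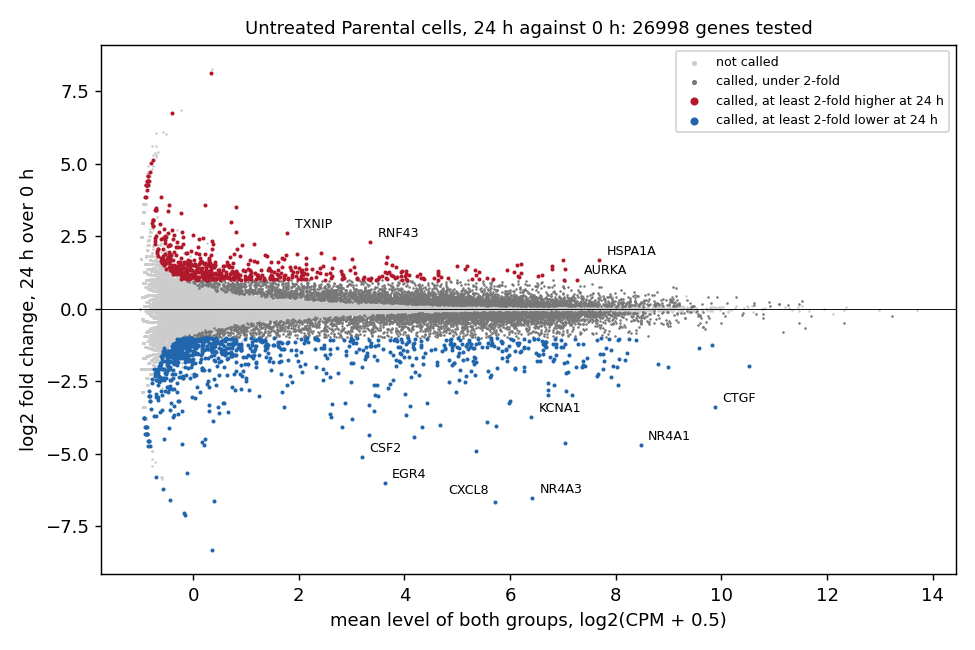
Each point is 1 of 26998 genes, with its mean level over both groups on the x axis, as log2(CPM + 0.5), and its log2 fold change, 24 h over 0 h, on the y axis. The 911 genes lower by at least 2-fold include NR4A1, NR4A3, CXCL8 and CTGF at moderate to high levels. Most genes of both sets sit at low levels: 325 of the 911 lower genes and 113 of the 560 higher genes reached 5 CPM at 24 h or at 0 h.

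By annotation in GENCODE 29, 14779 of the tested genes were protein coding, and 3151 of them were higher and 3246 lower at 24 h, together 43.3%. Of 5968 long noncoding RNA genes, 522 were higher and 477 lower, together 16.7%. Among the long noncoding RNAs, LINC00473, a transcript induced by cAMP signalling in other cells, stood at 0.714, 0.707 and 1.07 CPM in the 24 h wells, against 9.33, 10.3 and 10.8 CPM in the 0 h wells (log2 fold change -3.63 ± 0.17 SE, adjusted p = 1.68e-34). Whether the counting used strand is not given, so a gene and an antisense partner may share reads.

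Immediate early genes were among the deepest falls. Of 21 tested members of an immediate early list, 20 were lower at 24 h, 18 of them by at least 2-fold, and 0 were higher. The list's median log2 fold change was -2.59, against a median of 0 over all genes tested, where 16.8% were lower. NR4A3 (ENSG00000119508.17, chromosome 9: 99821855 to 99866891, GRCh38), an orphan nuclear receptor of the NR4A family, stood at 1.72, 1.58 and 2.19 CPM in the 24 h wells, against 155, 172 and 177 CPM in the 0 h wells. Its fall was 92.9-fold (log2 fold change -6.54 ± 0.11 SE, adjusted p = 4.24e-73). Every 24 h well lay far below every 0 h well.

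The related NR4A1 (ENSG00000123358.19, chromosome 12: 52022832 to 52059507) was more abundant in counts and fell 26.0-fold, with 26.2, 24.4 and 28.2 CPM at 24 h against 654, 669 and 730 CPM at 0 h (adjusted p = 2.89e-74). NR4A2, the third receptor of the family, stood at 2.37 to 2.92 CPM at 24 h and 67.9 to 85.8 CPM at 0 h (log2 fold change -4.89). All 3 receptors were thus at a few percent of their 0 h level or less. EGR4, a zinc finger factor of the EGR family that is not on the list, stood at 0.357, 0.333 and 0.386 CPM at 24 h against 24.1, 22.9 and 23.1 CPM at 0 h (log2 fold change -6.01 ± 0.18 SE, adjusted p = 1.91e-57).

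EGR1, the best known EGR factor, stood at 54.2, 51.8 and 61.9 CPM at 24 h against 199, 209 and 201 CPM at 0 h (log2 fold change -1.86 ± 0.13 SE, adjusted p = 3.09e-24). The AP-1 subunits were lower to very different degrees: FOSB by 4.35, JUNB by 2.97, FOSL1 by 2.79, FOS by 1.31 and JUN by 0.53 on the log2 scale. Feedback regulators of kinase signalling were lower too. DUSP2, a phosphatase of MAP kinases outside the list, stood at 10.3, 11.4 and 8.92 CPM at 24 h against 248, 241 and 264 CPM at 0 h (log2 fold change -4.61 ± 0.10 SE, adjusted p = 4.09e-61), and the list members DUSP1, DUSP5 and SPRY2 had log2 fold changes of -2.63, -2.59 and -2.28. DUSP6, a phosphatase of ERK, was the 1 tested member not called (log2 fold change -0.02).

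Promoters are shown here because the listed genes moved together, with a letter pattern of a factor known to act on them in capitals. The sequences are the 250 bases before the start of the gene in RefSeq (GRCh38.p14), 5′ to 3′ on the gene's strand. The capitals in NR4A3 (chr9:99821635-99821884, plus strand) are TGACG on either strand, the core of the cAMP response element bound by CREB, with 4 matches. In EGR1 (chr5:138465229-138465478, plus strand) they mark 2 CArG boxes, the site of SRF, and 2 matches to TGACG.
NR4A3: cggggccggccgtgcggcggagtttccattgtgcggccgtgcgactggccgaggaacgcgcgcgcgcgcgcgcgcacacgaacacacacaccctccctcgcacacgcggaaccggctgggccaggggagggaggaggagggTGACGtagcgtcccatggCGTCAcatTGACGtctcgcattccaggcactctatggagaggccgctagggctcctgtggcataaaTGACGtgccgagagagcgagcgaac
EGR1: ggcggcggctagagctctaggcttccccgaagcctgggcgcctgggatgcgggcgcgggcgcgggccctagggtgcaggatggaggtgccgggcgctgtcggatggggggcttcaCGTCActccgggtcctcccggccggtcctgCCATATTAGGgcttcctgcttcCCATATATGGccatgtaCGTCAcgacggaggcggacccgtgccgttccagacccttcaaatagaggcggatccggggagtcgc
TGACG was found on either strand in 12 of 21 promoters of 15 list members with a RefSeq entry (57.1%), and in 24.6% of 35116 promoters of 300 bases, from 250 before to 50 after a gene's start. CArG boxes were found in 2 of these 21 promoters (9.52%), and in 1.29% of all 35116. A match is a description of the letters only. Several lists in this report were drawn up as known targets of the factor whose pattern was counted. For them a share above that of all promoters is built in and says nothing of the change over the day.

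Inflammatory genes fell with a similar depth. Of 20 tested members of an NF-kB and inflammatory list, 17 were lower at 24 h, 16 of them by at least 2-fold, and 0 were higher. The median was -2.27 (log2), against 0 over all genes tested. CXCL8 (ENSG00000169429.10, chromosome 4: 73740506 to 73743716), which encodes the neutrophil chemokine interleukin 8, stood at 0.976, 0.832 and 1.33 CPM in the 24 h wells, against 116, 103 and 91.2 CPM in the 0 h wells. That was the steepest fall among called genes of at least 5 CPM (log2 fold change -6.65 ± 0.24 SE, adjusted p = 1.20e-44), and the groups did not overlap.

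The cytokine genes did not all start from the same level. CSF2, the granulocyte and macrophage growth factor, which is outside the list, stood at 0.429, 0.582 and 0.472 CPM at 24 h against 17.2, 16.6 and 16.7 CPM at 0 h. IL11, a cytokine of the IL6 family, stood at 5.71, 5.41 and 6.39 CPM at 24 h against 90.9, 81.2 and 89.5 CPM at 0 h (log2 fold change -3.91 ± 0.09 SE, adjusted p = 2.50e-61). LIF, of the same family, was lower by 2.25 and IL6 itself by 3.38 on the log2 scale, IL6 from counts that were low in both groups (0.0832 to 0.214 CPM at 24 h, 1.34 to 1.90 CPM at 0 h). CCL20, a chemokine outside the list, was lower by 3.81.

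Inhibitors that NF-kB induces against itself fell along with its cytokine targets. TNFAIP3 (A20, a ubiquitin editing enzyme; chromosome 6: 137867188 to 137883312) stood at 6.38, 5.32 and 6.47 CPM at 24 h against 102, 95.8 and 102 CPM at 0 h (log2 fold change -4.03 ± 0.10 SE, adjusted p = 1.41e-56). NFKBIA and NFKBIE, which hold NF-kB in the cytosol, had log2 fold changes of -2.16 and -2.30, and the subunits RELB, NFKB1, NFKB2 and RELA had -2.30, -1.59, -1.21 and -0.19. The 3 tested members not called were CXCL2, which was near the detection limit in all 6 wells (0 to 0.257 CPM), IL1A and TNFRSF11B. In the CXCL8 promoter (chr4:73740319-73740568, plus strand) the capitals mark the 1 match to GGNNNTTCC, a short form of the NF-kB site.
CXCL8: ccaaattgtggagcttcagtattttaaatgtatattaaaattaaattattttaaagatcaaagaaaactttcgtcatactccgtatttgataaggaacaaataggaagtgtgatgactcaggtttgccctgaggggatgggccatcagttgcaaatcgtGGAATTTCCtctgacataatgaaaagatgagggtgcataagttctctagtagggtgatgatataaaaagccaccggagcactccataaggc
This pattern was found in 12 of 20 promoters of 15 list members (60%), and in 20.1% of all 35116.

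**Figure D2:**
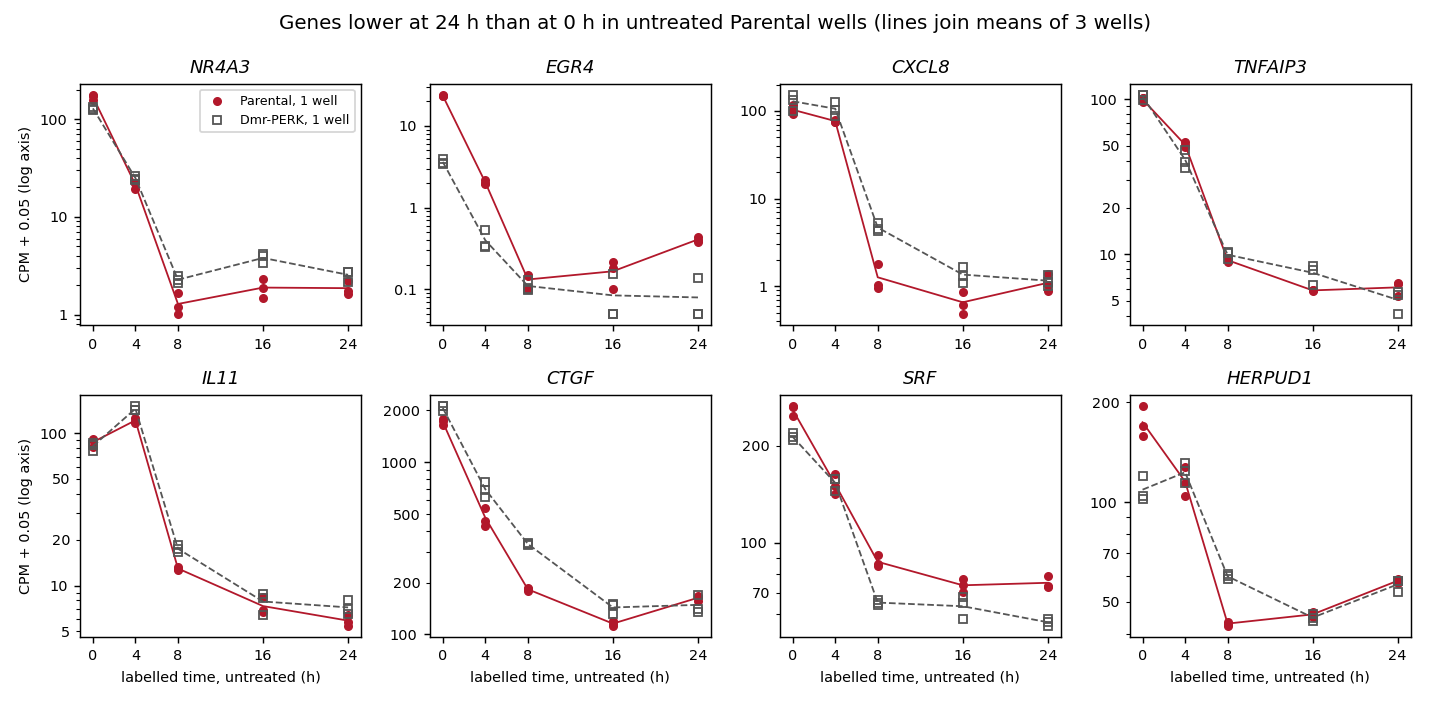
CPM + 0.05 on a log axis against the labelled time in hours for 8 genes, with a filled circle for each untreated Parental well and an open square for each untreated Dmr-PERK well, and lines through the means of 3 wells. In Parental wells CXCL8 averaged 76.7 CPM at 4 h and 1.22 CPM at 8 h, and IL11 was above its 0 h level at 4 h (121 CPM).

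The time points between show when the falls happened. These steps share wells with the 24 h against 0 h comparison and are given as values beside it. From 0 to 4 h 5290 genes were called (19.6%), from 4 to 8 h 8036 (29.8%), from 8 to 16 h 6393 (23.7%) and from 16 to 24 h 4548 (16.8%), and with a fold of at least 2 the steps held 473 (1.75%), 1075 (3.98%), 451 (1.67%) and 178 (0.659%) genes. By direction, 10.4% of genes were higher and 9.15% lower in the first step, 14.2% and 15.6% in the next, 12.1% and 11.6% in the next, and 6.96% and 9.88% in the last. These splits depend on the scaling: with library totals alone they were 2318 higher and 3056 lower, 4650 and 3585, 3659 and 2892, and 2616 and 1908, so the larger side turned in the first, the second and the last step. Leaving out replicate 1 of every group brought the first step to 3194 genes, 1409 higher and 1785 lower, and the last step to 2183, and leaving out replicate 2 brought the last step to 2876. NR4A3 averaged 21.3 CPM at 4 h, 1.25 CPM at 8 h and 1.85 CPM at 16 h, so it was already lower at 4 h. CXCL8 averaged 76.7 CPM at 4 h and 1.22 CPM at 8 h, a later and steeper drop. Of the immediate early list 19 members were lower at 4 h than at 0 h and 18 were lower again at 8 h than at 4 h, while of the NF-kB list 7 were higher and 6 lower at 4 h than at 0 h and 16 were lower at 8 h than at 4 h. IL11 (121 CPM at 4 h) and CCL20 (23.8 CPM at 4 h) were higher at 4 h than at 0 h before they fell. EGR1 (33.6 CPM at 8 h) and NR4A1 (11.98 CPM at 8 h) had their lowest mean at 8 h and were partly recovered at 24 h, both called higher at 24 h than at 16 h.

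Genes of the actin and adhesion programmes were lower at 24 h as well, by smaller factors. Of 20 tested YAP/TEAD targets 15 were lower and 2 (MYOF and AXL) higher, with a median of -0.61. CTGF (ENSG00000118523.5, CCN2 in current naming; chromosome 6: 131948176 to 131951373), a secreted matricellular protein and the standard YAP readout, stood at 165, 156 and 168 CPM at 24 h against 1633, 1722 and 1780 CPM at 0 h. That is a 10.5-fold fall (log2 fold change -3.39 ± 0.08 SE, adjusted p = 2.08e-58). CYR61 (CCN1), its relative, stood at 208, 204 and 199 CPM at 24 h against 829, 793 and 812 CPM at 0 h (log2 fold change -1.99), and the kinase gene NUAK2 and the tissue factor gene F3 were lower by 3.26 and 2.45 on the log2 scale.
CTGF: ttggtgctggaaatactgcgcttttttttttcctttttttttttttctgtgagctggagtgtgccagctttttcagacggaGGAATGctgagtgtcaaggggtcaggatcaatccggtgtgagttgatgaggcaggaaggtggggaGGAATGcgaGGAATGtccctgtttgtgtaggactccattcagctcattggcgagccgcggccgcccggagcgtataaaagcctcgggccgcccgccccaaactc
The capitals in this promoter (chr6:131951373-131951622, minus strand) mark 3 matches to GGAATG, the core of the TEAD site, which was found in 8 of 16 promoters of 14 YAP/TEAD list members (50%) and in 14% of all 35116.

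Of 18 tested SRF and actin cytoskeleton genes, 16 were lower at 24 h, 4 of them by at least 2-fold, and 0 were higher, with a median of -0.77. SRF itself (chromosome 6: 43171299 to 43181507) stood at 73.6, 73.0 and 78.7 CPM at 24 h against 264, 248 and 265 CPM at 0 h (log2 fold change -1.79 ± 0.05 SE, adjusted p = 4.60e-56). The focal adhesion genes VCL and ZYX had log2 fold changes of -1.07 and -1.05, TAGLN had -1.20, and the cytoplasmic actins ACTB and ACTG1 had -0.47 and -0.80. ACTB, often used as a reference gene, was thus at 4294, 4443 and 4053 CPM in the 24 h wells against 5998, 5753 and 6019 CPM in the 0 h wells (adjusted p = 8.07e-15), whereas GAPDH had 3016, 3120 and 2921 CPM against 2668, 2608 and 2742 CPM. The 2 members not called were ACTA2, smooth muscle actin (3.45, 3.66 and 4.46 CPM at 24 h, 2.78, 3.20 and 3.21 CPM at 0 h, adjusted p = 0.0685), and CNN3. CArG boxes were found in 8 of 27 promoters of 15 list members (29.6%), which belong to 6 of these members, and in 1.29% of all 35116.

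Matrix and TGF-beta response genes were mostly lower. Of 14 tested TGF-beta response genes 12 were lower and 1 was higher, with a median of -0.47. The 4 ID genes, inhibitors of helix-loop-helix factors, were lower by 0.43 (ID1), 0.51 (ID2), 0.55 (ID3) and 1.75 (ID4). BMP4, a ligand of the same superfamily, was the exception, with 185, 206 and 174 CPM at 24 h against 64.0, 76.1 and 78.9 CPM at 0 h (log2 fold change 1.38 ± 0.07 SE, adjusted p = 2.91e-34). Of 22 tested collagen and matrix genes 15 were lower and 0 higher, led by THBS1, thrombospondin 1, at 620, 555 and 638 CPM at 24 h against 2376, 2308 and 2339 CPM at 0 h. COL1A1, the most abundant collagen transcript by count in this line, did not pass the test (log2 fold change 0.01, adjusted p = 0.945).

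**Figure D3:**
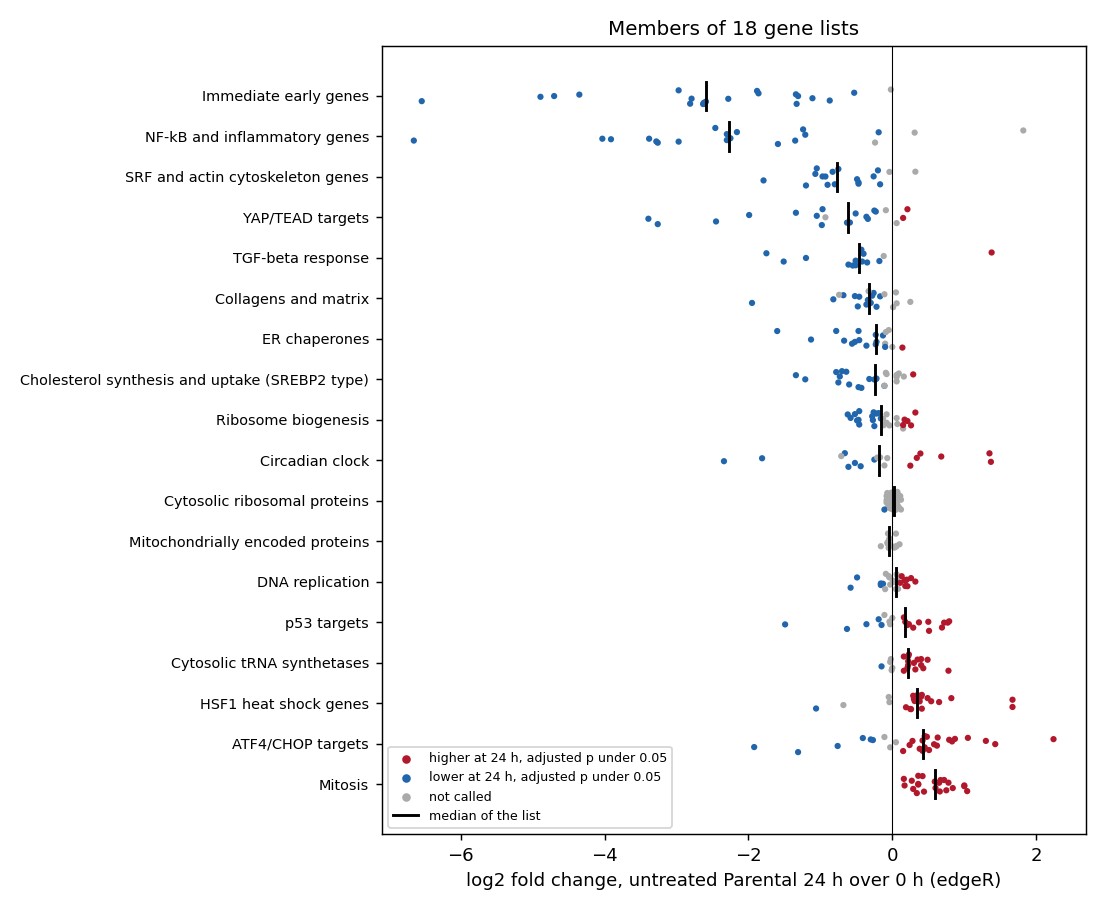
Each point is the log2 fold change, 24 h over 0 h, of 1 tested member of 18 gene lists, coloured by its call, with a bar at the median of the list. The immediate early (median -2.59) and NF-kB (-2.27) lists lie far to the left, the ribosomal protein list sits at 0.03, and the mitosis list (0.59) lies wholly to the right of 0.

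Among genes that reached 5 CPM the rises were shallower than the falls. TXNIP (ENSG00000265972.5, chromosome 1: 145992435 to 145996600), an alpha-arrestin that restrains glucose uptake and binds thioredoxin, had the highest fold change among called genes of at least 5 CPM. It stood at 5.07, 4.82 and 5.32 CPM in the 24 h wells, against 0.880, 0.931 and 0.664 CPM in the 0 h wells (6.06-fold, log2 fold change 2.60 ± 0.26 SE, adjusted p = 1.16e-14). Its relatives ARRDC3 (log2 fold change 0.58) and ARRDC4 (0.77) were higher and ARRDC2 (-0.70) was lower.

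RNF43 (chromosome 17: 58352500 to 58417595), a membrane ubiquitin ligase that removes Wnt receptors and is itself a Wnt target, stood at 16.3, 14.1 and 18.1 CPM at 24 h against 2.92, 3.37 and 3.71 CPM at 0 h (log2 fold change 2.30 ± 0.13 SE, adjusted p = 8.67e-30). It did so late: its mean was 1.29 CPM at 4 h, 2.02 CPM at 8 h and 5.19 CPM at 16 h. Most other genes of a Notch and Wnt list did not follow it. Of 15 tested, 2 (RNF43 and ZNRF3) were higher and 6 lower at 24 h. Among the lower ones were LGR5 (log2 fold change -1.08) and NKD1 (-1.23). The share of this list called was not above that over genes of at least 5 CPM (6869 of 12447). The other rule-named genes with the highest fold changes included MYCL (1.91), the developmental factors SP8 (1.90) and MN1 (1.51), and PIF1, a DNA helicase (1.54). They also included WNT11 (1.74) and CCBE1 (1.77), which encode secreted proteins, and the axonemal dynein DNAH5 (1.74). MN1 and PIF1 stood at 98.7 to 113 CPM in the 24 h wells and the others at 5.02 to 21.5 CPM.

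Mitotic genes were all called in 1 direction. All 22 tested mitosis genes were higher at 24 h than at 0 h, 3 of them by at least 2-fold, with a median of 0.59, against 16.4% of all genes higher. AURKA (chromosome 20: 56369389 to 56392337), a spindle pole kinase, stood at 209, 215 and 189 CPM at 24 h against 99.5, 98.9 and 108 CPM at 0 h (2.00-fold, log2 fold change 1.00 ± 0.04 SE, adjusted p = 3.43e-40). The checkpoint kinase gene TTK and the mitotic kinesin gene KIF20A were also near 2-fold (1.04 and 1.00 on the log2 scale), while CDK1 and KIF23 moved least (0.16 and 0.17). CDC20, an activator of the anaphase promoting complex, stood at 333, 351 and 319.7 CPM at 24 h against 213, 209 and 217 CPM at 0 h (log2 fold change 0.65 ± 0.05 SE, adjusted p = 3.81e-22).
CDC20: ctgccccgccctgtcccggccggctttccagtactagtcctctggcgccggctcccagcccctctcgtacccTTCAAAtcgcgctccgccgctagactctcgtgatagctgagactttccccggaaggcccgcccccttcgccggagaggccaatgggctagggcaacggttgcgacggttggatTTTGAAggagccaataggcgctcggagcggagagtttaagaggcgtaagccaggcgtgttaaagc
The capitals in this promoter (chr1:43358731-43358980, plus strand) mark 2 matches to TTTGAA on either strand, the cell cycle homology region bound by the DREAM complex. It was found in 11 of 20 promoters of 17 mitosis list members (55%) and in 15.2% of all 35116, and CCAAT in 18 of 20 (90%) and in 34.6%.

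The rise of the mitotic genes was not even over the day. At 4 h 14 of 22 were lower than at 0 h and 0 were higher, at 8 h 21 were higher than at 4 h, at 16 h 21 were lower than at 8 h, and at 24 h all 22 were higher than at 16 h. AURKA averaged 91.8 CPM at 4 h, 198 CPM at 8 h and 150 CPM at 16 h. DNA replication genes ran against this order, with 21 of 26 higher at 16 h than at 8 h and 20 lower at 24 h than at 16 h. Between 24 h and 0 h 9 were higher and 5 lower, with a median of 0.05 and fold changes from -0.58 to 0.32 (log2). MCM2, a subunit of the replicative helicase, stood at 155, 160 and 148 CPM at 24 h and 143, 150 and 155 CPM at 0 h (adjusted p = 0.568), and CDC6, which loads that helicase, was lower (log2 fold change -0.49, adjusted p = 5.60e-15).

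Cell cycle entry genes moved in both directions. CDKN1B, which encodes the CDK inhibitor p27, stood at 60.6, 57.7 and 59.3 CPM at 24 h against 23.8, 24.7 and 25.4 CPM at 0 h (2.41-fold, log2 fold change 1.27 ± 0.05 SE, adjusted p = 4.24e-41). Its mean was higher at each later time, with 37.4 CPM at 4 h, 49.2 CPM at 8 h and 54.6 CPM at 16 h. CCND1, cyclin D1, was lower (log2 fold change -0.44, adjusted p = 7.02e-14), as was the growth factor responsive MYC (-1.11, with 63.0, 67.1 and 53.6 CPM at 24 h against 140.2, 126 and 130.3 CPM at 0 h). Of 16 tested G1 genes 5 were higher and 6 lower. Of 16 tested FOXO targets and growth arrest genes 6 were higher and 6 lower, with CCNG2 (0.95) and PDK4 (1.17) among the higher and TRIB1 (-2.03) and GAS1 (-1.95) among the lower. Of 21 tested p53 targets 12 were higher and 5 lower, with a median of 0.18, and BTG2 (-1.49) fell furthest.

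**Figure D4:**
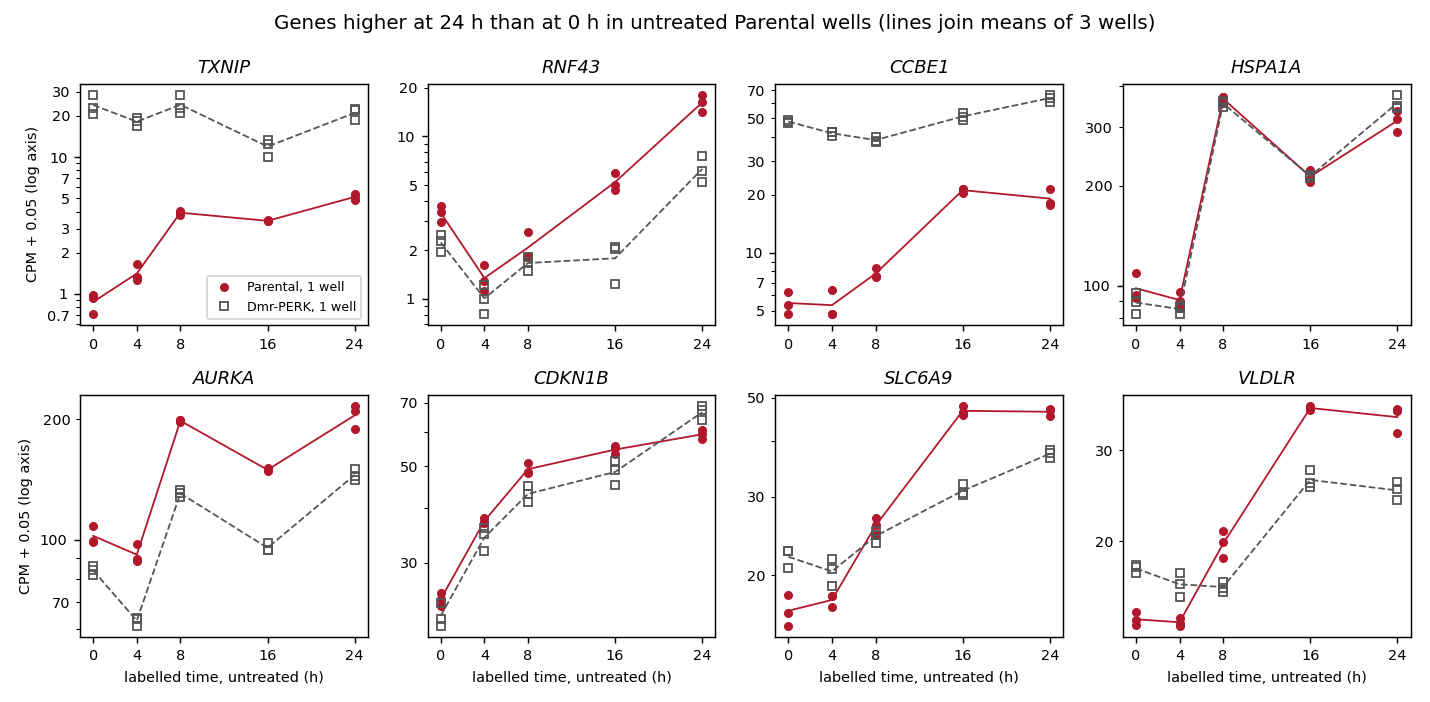
CPM + 0.05 on a log axis against the labelled time in hours for 8 genes higher at 24 h, with a filled circle for each untreated Parental well, an open square for each untreated Dmr-PERK well, and lines through the means of 3 wells. HSPA1A and AURKA have a peak at 8 h (365 and 198 CPM in Parental wells) and a lower level at 16 h (213 and 150 CPM), while the mean of CDKN1B is higher at each later time.

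Heat shock genes were mostly higher as well. Of 22 tested HSF1 targets 18 were higher at 24 h and 1, HSPB8, was lower, with a median of 0.34. HSPA1A (chromosome 6: 31815464 to 31817946), the inducible HSP70, stood at 318, 334 and 289 CPM at 24 h against 109, 93.8 and 92.1 CPM at 0 h (3.17-fold, log2 fold change 1.67 ± 0.09 SE, adjusted p = 1.96e-29). HSPA1B, a near-identical copy whose reads the counting may have shared out between the genes, had the same fold change (1.67), so the pair is best read as 1 measurement. HSPA1A averaged 90.7 CPM at 4 h, 365 CPM at 8 h and 213 CPM at 16 h, and over the list 18 members were higher and 1 lower at 8 h than at 4 h. At 16 h 4 were higher and 9 lower than at 8 h, and at 24 h 3 were higher and 11 lower than at 16 h. Constitutive chaperones rose by less, HSPA8 by 0.40 and HSP90AA1 by 0.41 on the log2 scale.
HSPA1A: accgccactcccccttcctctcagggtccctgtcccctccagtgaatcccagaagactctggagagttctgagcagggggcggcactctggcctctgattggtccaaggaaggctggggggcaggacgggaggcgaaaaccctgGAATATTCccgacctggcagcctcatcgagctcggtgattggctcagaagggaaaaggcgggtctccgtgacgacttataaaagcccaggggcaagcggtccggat
The capitals in this promoter (chr6:31815293-31815542, plus strand) mark the 1 match to GAANNTTC, a short form of the heat shock element, found in 12 of 31 promoters of 20 HSF1 list members (38.7%) and in 6.77% of all 35116.

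Targets of ATF4 and CHOP, the factors that carry the ISR, moved in both directions in the untreated cells, more often up. Of 30 tested members 21 were higher at 24 h and 6 lower, with a median of 0.43. ATF4 (chromosome 22: 39519695 to 39522685) stood at 367, 380.5 and 363 CPM at 24 h against 276, 263 and 276 CPM at 0 h (log2 fold change 0.45 ± 0.04 SE, adjusted p = 1.58e-20). Several amino acid supply genes were higher, while SLC7A5 (-0.30) and ALDH18A1 (-0.41) were lower. The glycine transporter gene SLC6A9, from a list of amino acid transporters of which 6 of 15 tested were higher and 4 lower, stood at 45.5, 46.8 and 47.1 CPM at 24 h against 18.03, 16.4 and 15.4 CPM at 0 h (log2 fold change 1.47 ± 0.06 SE, adjusted p = 7.59e-40), the serine synthesis genes PSAT1 and PSPH had 0.79 and 1.05, the cystine transporter SLC7A11 0.83, and asparagine synthetase ASNS 0.48. VLDLR, a lipoprotein receptor on this list, had 1.30. Of 20 tested cytosolic tRNA synthetases 15 were higher and 1 lower, with a median of 0.22, AARS leading at 0.78.

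Other higher members were FGF21 (2.24), a secreted hormone, SESN2 (0.87), an inhibitor of mTORC1 signalling, and CHAC1 (0.58), which degrades glutathione. Among the 6 lower members, DDIT3, which encodes CHOP, stood at 10.2, 9.52 and 10.4 CPM at 24 h against 41.8, 35.1 and 36.6 CPM at 0 h (log2 fold change -1.92 ± 0.09 SE, adjusted p = 3.43e-36). PPP1R15A, the GADD34 subunit that brings a phosphatase to eIF2alpha, stood at 26.4, 25.8 and 23.2 CPM at 24 h against 61.3, 61.7 and 64.8 CPM at 0 h (log2 fold change -1.31), and CEBPB, ATF5, SLC7A5 and ALDH18A1 were the other members lower at 24 h. TRIB3, the pseudokinase often taken as a CHOP readout, did not pass the test (21.4, 20.5 and 19.9 CPM at 24 h, 21.3, 18.9 and 19.1 CPM at 0 h, adjusted p = 0.718). SLC6A9 averaged 17.6 CPM at 4 h, 25.8 CPM at 8 h and 46.7 CPM at 16 h. Over the ATF4 and CHOP list 14 of 30 members were higher and 7 lower at 4 h than at 0 h, and 22 were higher and 2 lower at 16 h than at 8 h. The amino acid transporters had 8 of 15 higher and 1 lower at 4 h than at 0 h and 6 higher and 2 lower at 16 h than at 8 h, and the tRNA synthetases had 12 of 20 higher in each of these steps. DDIT3 averaged 12.6 CPM at 4 h, so its fall came in the first step.

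Of 19 tested ER chaperone and ER stress genes 14 were lower at 24 h and 1, CANX, was higher, with a median of -0.23. HERPUD1, an ER membrane protein of degradation, stood at 57.1, 58.4 and 58.2 CPM at 24 h against 195, 158 and 170 CPM at 0 h (log2 fold change -1.60 ± 0.05 SE, adjusted p = 5.87e-46). DNAJB9, an ER cochaperone, had -1.13. HSPA5 (BiP), the main ER chaperone, stood at 604, 614 and 608 CPM at 24 h against 958, 856 and 882 CPM at 0 h (log2 fold change -0.56), after a mean of 1307 CPM at 4 h. EIF2AK3, the gene of PERK itself, stood at 28.5, 26.6 and 27.7 CPM at 24 h against 52.5, 50.7 and 47.7 CPM at 0 h (log2 fold change -0.86 ± 0.06 SE, adjusted p = 2.39e-24). Genes that serve as readouts of the ISR and of ER stress in this series differed between untreated wells of 24 h and 0 h.

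Sterol genes were lower in the majority. Of 24 tested SREBP2-type genes 15 were lower and 1, TM7SF2, was higher, with a median of -0.24. HMGCS1, an early enzyme of cholesterol synthesis, stood at 99.9, 104 and 97.9 CPM at 24 h against 245, 219 and 232 CPM at 0 h (log2 fold change -1.21 ± 0.06 SE, adjusted p = 1.47e-36), and STARD4, a sterol carrier, had -1.34. The feedback gene INSIG1 had -0.75. Of 22 tested glycolysis genes 12 were higher and 6 lower. The glucose transporters SLC2A1 (-0.76) and SLC2A3 (-1.27), the enzymes HK2 (-1.32), PFKFB3 (-1.45) and PFKL (-0.13) and the lactate exporter SLC16A3 (-0.90) were lower, while enzymes such as GPI (0.27), ALDOA (0.24), ENO1 (0.24) and LDHA (0.21) were higher by small amounts. Of 20 tested HIF targets 4 were higher and 6 lower, among the lower VEGFA (-0.84) and ADM (-1.58). The share of HIF targets called was not above that over genes of at least 5 CPM (6869 of 12447).

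Most clock genes differed between 24 h and 0 h. Of 18 tested 6 were higher and 7 lower. PER1 stood at 51.4, 49.4 and 47.1 CPM at 24 h against 169, 175 and 176 CPM at 0 h (log2 fold change -1.81 ± 0.06 SE, adjusted p = 6.44e-48), after means of 56.1 CPM at 4 h, 21.5 CPM at 8 h and 20.1 CPM at 16 h. BHLHE40, a repressor of the clock and of many stimulus responses, had -2.34. PER2 (-0.66) and CRY1 (-0.61) were lower too. DBP and NR1D1 went the other way, with log2 fold changes of 1.37 and 1.35. DBP stood at 49.7, 50.6 and 51.2 CPM at 24 h against 17.6, 19.8 and 21.8 CPM at 0 h. At the last step, 24 h against 16 h, 11 clock genes were higher and 3 lower.

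Ribosomal protein genes and mitochondrially encoded genes stayed level, while other classes did not. Of 78 tested cytosolic ribosomal protein genes 0 were higher and 1 was lower (RPL10A, log2 fold change -0.11, adjusted p = 0.042), with all fold changes between -0.11 and 0.12. The RPL10A call was lost in 5 of the 6 fits that left out 1 well and with library totals alone. Of 13 mitochondrially encoded genes 0 were called, and their median of -0.04 was 0.02 with library totals alone. Ribosome biogenesis genes, which make rather than form the ribosome, were lower in 14 of 27 and higher in 5, with the nucleolar helicase DDX21 at -0.62. At 4 h 19 of them were above their 0 h level. Later, 22 were lower at 16 h than at 8 h and 22 were lower at 24 h than at 16 h. Lysosome genes were lower in 11 of 24 and higher in 1, with the protease gene CTSL at -0.88. That share called was not above the one over genes of at least 5 CPM (6869 of 12447). Of 23 tested interferon-stimulated genes 7 were higher and 2 lower, a share near the 33.2% called over all genes. IFIT1, which binds foreign RNA, stood at 11.4, 11.6 and 10.8 CPM at 24 h against 3.80, 4.36 and 4.53 CPM at 0 h, and the factor IRF1, also an NF-kB target, had -1.65.

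The second line tells which of these changes were shared. Untreated Dmr-PERK wells of 24 h and 0 h share no library with the Parental comparison. In them 8394 genes were called (31.1%), 3893 higher (14.4%) and 4501 lower (16.7%), and with library totals alone 5435 higher and 3391 lower. Called genes lower in both lines numbered 3145, which is 69.3% of those lower in Parental cells and 69.9% of those lower in Dmr-PERK cells. Called genes higher in both numbered 2622, 59.2% of the Parental and 67.4% of the Dmr-PERK set. A further 70 genes were called higher in Parental and lower in Dmr-PERK cells, and 34 the other way. Across the 12447 genes of at least 5 CPM the 2 log2 fold changes had a Pearson correlation of 0.88, and over all 26998 genes of 0.335, a description across genes, which are not independent.

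Immediate early and inflammatory genes fell in both lines. In Dmr-PERK cells 20 of 21 immediate early genes and 18 of 20 NF-kB list genes were lower, with medians of -2.20 and -1.99, and 21 of 22 mitosis genes were higher, with a median of 0.50. NR4A1 stood at 20.9, 26.8 and 19.9 CPM in the 24 h Dmr-PERK wells against 566, 577 and 654 CPM in the 0 h Dmr-PERK wells, and the difference between the lines in its change was 0.03 ± 0.10 SE on the log2 scale (adjusted p = 0.959). CXCL8 had 0.966, 1.29 and 1.07 CPM against 154, 134 and 99.6 CPM in the same wells. HSPA1A had 376, 342 and 346 CPM at 24 h against 95.4, 89.6 and 82.3 CPM at 0 h.

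The test of the difference itself (the Parental change minus the Dmr-PERK change) called 1443 genes (5.34%), 833 positive (3.09%) and 610 negative (2.26%), of which 162 (0.600%) differed by at least 2-fold. This count ranged from 507 to 1384 when 1 replicate number was left out of all groups (507 without replicate 1, 617 without replicate 2). Without replicate 1 the larger side turned, with 225 positive and 282 negative. TXNIP had the largest positive difference among called genes of at least 5 CPM, 2.78 ± 0.29 SE (adjusted p = 1.08e-12). In Dmr-PERK wells it stood at 21.9, 22.3 and 18.7 CPM at 24 h and at 20.7, 28.6 and 22.65 CPM at 0 h, so its low level at 0 h in Parental wells, below 1 CPM, was not seen there. FOXC1, a forkhead factor, was lower by 1.87 in Dmr-PERK cells and by 0.46 in Parental cells (difference 1.41, adjusted p = 6.50e-18). UBE2QL1 (difference -2.09) and LINC00473 (-2.10) fell further in Parental cells.

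**Figure D5:**
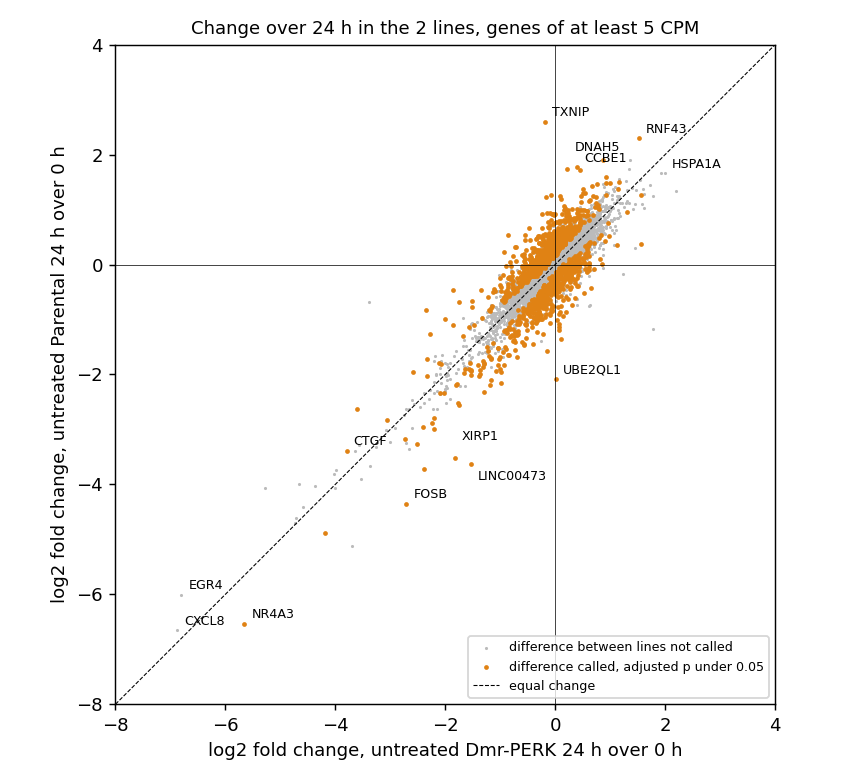
Each point is 1 of 12447 genes of at least 5 CPM, with the log2 fold change, 24 h over 0 h, in Dmr-PERK wells on the x axis and in Parental wells on the y axis. The 1276 genes in orange, with a called difference between lines, include TXNIP at 2.60 in Parental and -0.18 in Dmr-PERK cells, while CXCL8 and EGR4 lie at the far lower left in both.

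Differences between the lines were called in several lists. Over all genes tested, 3.09% had a called positive and 2.26% a called negative difference. Among the 12447 genes of at least 5 CPM, 1276 had a called difference of either sign. Of the 24 tested SREBP2-type genes, 10 were higher and 7 lower at 24 h in Dmr-PERK cells, with a median of 0.03, against 1 higher and 15 lower in Parental cells. The difference between lines was negative and called for 19 of the 24 and positive for 0. DHCR7, the last enzyme of the pathway, stood at 62.9, 62.9 and 62.6 CPM at 24 h against 76.0, 77.5 and 81.8 CPM at 0 h in Parental wells, and at 78.8, 77.2 and 77.5 CPM at 24 h against 63.0, 65.6 and 65.1 CPM at 0 h in Dmr-PERK wells (difference -0.59, adjusted p = 2.07e-11). Of 30 ATF4 and CHOP targets the difference was called positive for 15 and negative for 2. ATF4 stood at 335, 318 and 348 CPM at 24 h and at 329, 331 and 331 CPM at 0 h in Dmr-PERK wells (log2 fold change 0.01), and its difference was 0.43 ± 0.05 SE (adjusted p = 6.90e-11). ER chaperones had a called negative difference in 10 of 19 and fatty acid synthesis genes in 8 of 12, with 0 positive in both. The difference was positive for 7 of 15 amino acid transporters, 8 of 20 tRNA synthetases and 3 of 6 alpha-arrestins, with 0 negative in these lists, and for 5 of 18 clock genes, with 2 negative. Reads of EIF2AK3 and FKBP1A in Dmr-PERK cells (898 to 945 CPM and 1166 to 1219 CPM at 24 h) may include the construct, whose kinase domain is of mouse PERK and whose dimerization domain derives from FKBP12, so the endogenous gene and the construct cannot be told apart in their values.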

How the data were processed

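The authors deposited estimated counts and TPM of each gene, with 1 column per library. Salmon 0.9.1, FastQC 0.11.5 and GRCh38 are named in the submitters' processing notes. The settings, the annotation release and the step from transcripts to genes are not given in the sources used here. Of the entries above 0 in the count table, 49.5% were whole within 1e-05, so the deposited estimated counts were rounded to whole numbers. The authors' TPM columns hold a floor of 0.063122 wherever the count is 0 and sum to 1001150 to 1001825, by a step not given, and were used only for alternatives.

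Genes were kept with the filter of edgeR 4.0.16 at a minimum count of 10 (R 4.3.3), scaled by TMM (factors 0.8392 to 1.169), and fitted with the quasi-likelihood test in 1 model of 40 groups over 120 libraries. The residual degrees of freedom were 80 and all groups shared 1 estimate of the spread. Benjamini-Hochberg adjustment ran over all 26998 genes, and genes were called at an adjusted p under 0.05. Log2 fold changes are 24 h over 0 h, and the difference between lines is the Parental change minus the Dmr-PERK change. Each SE was worked back from the test, as the absolute log2 fold change over the square root of its F statistic. It is thus approximate, above all for large folds from low counts. The code was tested on simulated data. Alternatives used DESeq2 1.42.0, limma 3.58.1 on log2(TPM + 0.1) and log2(TPM + 1), another scaling, no filter, fewer libraries, a replicate block and left-out wells.

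The members and the gene lists were chosen with earlier results of these data known, and lists are described by counts and medians with no set test. The rule for named genes took, at a mean of at least 5 CPM, the 15 highest and the 15 lowest called fold changes and the 6 largest called differences between lines each way, then, from every list, the 3 members lowest in adjusted p, and a panel of ISR, sterol and cell cycle genes, 149 genes in all. EGR1, FOS, EGR3, ANKRD1, CXCL2, IL6, KIF20A, PLK1, TAGLN, ACTA2, DHCR7, NR1D1, PSAT1, DDIT4, CTH, HSPA8, DNAJB1 and CDC20, and list members named beside a count that the rule did not take, were chosen after their values were seen. A few genes taken by the rule are not reported here. Positions are from GENCODE 29, matched by versioned identifier for 23995 of 26998 genes, and promoter sequences are from RefSeq. The library kit is directional, per the labels' protocols, but whether the counting used strand is not given. The spread behind each test was pooled over the wells of all 40 groups, and each group mean rests on 3 wells.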

Additional observations from a re-analysis of the deposited data

Results flagged for a closer look

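The change over a day differed between the Parental and the Dmr-PERK line, by the interaction test in edgeR, for 1443 genes. Among the named genes whose difference was at least 2-fold, 9 reported here had a larger log2 fold change in Parental than in Dmr-PERK cells. These differences were 2.78 for TXNIP, 1.53 for DNAH5, 1.53 for PLXNA4, 1.41 for FOXC1, 1.40 for KRT14, 1.39 for ALPP, 1.37 for CCBE1, 1.07 for COL3A1 and 1.03 for MYCL on the log2 scale. The difference was negative for LINC00473 (-2.10), UBE2QL1 (-2.09), XIRP1 (-1.69), FOSB (-1.64), ENPP1 (-1.47), ADM (-1.42), LGR5 (-1.15) and EIF2AK3 (-1.07). The calls for DNAH5, PLXNA4, KRT14, COL3A1, MYCL, XIRP1, FOSB and LGR5 were lost under at least 1 alternative. The lines also differ at 0 h, where TXNIP stood at 20.7 to 28.6 CPM in Dmr-PERK wells and at 0.664 to 0.931 CPM in Parental wells. Reads of the construct may be counted under EIF2AK3 in the Dmr-PERK line, which was not tested.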

How the results depend on the processing

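The count of genes called between 24 h and 0 h in Parental cells (8966) was 8705 with DESeq2, 9029 with RLE size factors, 9529 with library totals alone, 7970 with no filter on low counts, 9806 with the 30 untreated libraries only, 9334 with the 6 libraries compared only, and 6474 and 6956 with limma on log2(TPM + 0.1) and log2(TPM + 1). Leaving out wells gave 6414 to 8576, and 1158 to 1518 genes of at least 2-fold, of which limma on log2(TPM + 1) called 508. Some other counts moved by over 1.5 times. With limma on log2(TPM + 0.1) and log2(TPM + 1), the difference between lines fell to 660 and 836 genes, 4 h against 0 h to 2906 and 3209, 16 h against 8 h to 2994 and 3349, and 24 h against 16 h to 1552 and 1753, while 8 h against 4 h fell to 5004 at the smaller pseudocount. The 30 untreated libraries alone gave 2281 genes for the difference between lines. Leaving out 1 replicate number gave 507 to 1384 genes for the difference between lines, 3194 to 5211 for 4 h against 0 h, 5787 to 7111 for 8 h against 4 h, 4265 to 5596 for 16 h against 8 h, 2183 to 4516 for 24 h against 16 h, and 6090 to 7444 for Dmr-PERK cells. Of these ranges, those for 8 h against 4 h, 16 h against 8 h and Dmr-PERK cells stayed within 1.5 times of the main count. The cause of the shifts was not tested. Of the named genes' values between 24 h and 0 h, 2944 kept their direction and side of the threshold, 52 lost the call, 6 gained it and 0 changed sign. In the difference between lines 3 changed sign, EGR4 at -1.59 and -2.08 under the limma fits and KCNA1 at -0.749 under log2(TPM + 1). The median of the clock list was 0.02 under log2(TPM + 0.1), and that of the blood marker list was -0.03 without the second 24 h well. Wells with the same replicate number did not deviate together (correlations of -0.0812, -0.096 and -0.103 over 12674 genes). With 3 wells per group this cannot exclude that the numbers pair the samples. With the replicate block 8969 genes were called, 1472 of them at least 2-fold, 8364 in Dmr-PERK cells and 1406 for the difference between lines.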
